A study of Mus musculus with 4 samples.

Results

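Genes of the defence against reactive oxygen species were compared between blood monocytes (MON) and blood neutrophils (NEU) of the mouse. The 10 genes were listed by symbol for their role, with earlier results of these data known, and matched by gene identifier: Sod1, Sod2, Cat, Gpx1, Gpx4, Prdx1, Prdx5, Txn1, Txnip and Nfe2l2. They are 10 of the 43346 gene entries of the tables, and all 10 were among the 14309 genes that passed the filter on low counts and were tested. Both cell types came from peripheral blood drawn from C57BL6 adults with no genetic change or treatment named, and 2 libraries of total RNA were made from each. The labels describe the monocytes as Gr-1+Mac-1+ cells sorted out of the mononuclear layer of a Ficoll gradient, whereas the study's supplement lists them as Ly6g- and CD11b+. The neutrophils were taken from the pellet once red cells had been lysed and were not sorted, and the study's methods describe all its mice as male. The study's supplement allows replicates to be cells of different groups of mice or separate aliquots of a single sort, so p-values measure only the spread between these libraries, which may be technical.

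Phagocytes make superoxide on purpose to kill microbes, and their own cytoplasm and mitochondria leak it as well. Superoxide dismutases turn superoxide into hydrogen peroxide, which catalase, the glutathione peroxidases and the peroxiredoxins then break down. Most peroxiredoxins do so with electrons from thioredoxin. NRF2, the product of Nfe2l2, is held down by KEAP1 and, once released, switches on many of these genes through a short DNA motif, the antioxidant response element. TXNIP binds and inhibits thioredoxin, limits glucose uptake, and is itself switched on by glucose through a carbohydrate response element.

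The promoters were read from RefSeq (GRCm38.p6, the assembly also called mm10), in windows of 300 bases of which 250 lie before the gene's start. All 10 genes had at least 1 window, 13 in all. Distances below are counted from the RefSeq start, which differs from the gene coordinates given later for Prdx1, Sod1 and Nfe2l2. The antioxidant response element was searched as TGACNNNGC on both strands and was found in 12.4% of all 32851 windows, and in 3 of the 13 windows of these genes, at Prdx1, Sod1 and Nfe2l2. The carbohydrate response element was searched as a pair of CACGNG boxes with 5 bases between them, also on both strands. It was found in 16 windows of the whole table (0.0487%), and among these genes at Txnip alone, 85 to 69 bases before the start. The stretches with these matches are shown because they belong to the genes among the 10 that differed most in each direction and to the genes with an antioxidant response element. Capitals mark the motif, letters run 5′ to 3′ on the gene's strand, and the stretches end before the first annotated base of the gene.
Prdx1, chr4:116685349-116685543, plus strand: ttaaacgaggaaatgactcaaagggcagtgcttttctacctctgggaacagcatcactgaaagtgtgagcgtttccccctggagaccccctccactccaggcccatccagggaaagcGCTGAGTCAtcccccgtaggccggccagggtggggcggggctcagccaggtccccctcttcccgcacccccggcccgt
Txnip, chr3:96557707-96557956, plus strand: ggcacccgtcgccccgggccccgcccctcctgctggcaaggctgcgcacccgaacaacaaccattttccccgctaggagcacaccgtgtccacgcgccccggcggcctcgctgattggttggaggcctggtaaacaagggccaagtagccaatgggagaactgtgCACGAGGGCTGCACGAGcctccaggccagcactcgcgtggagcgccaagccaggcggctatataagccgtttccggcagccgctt
Sod1, chr16:90220682-90220741, plus strand: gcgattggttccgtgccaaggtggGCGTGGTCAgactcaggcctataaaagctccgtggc
Nfe2l2, chr2:75704854-75704913, minus strand: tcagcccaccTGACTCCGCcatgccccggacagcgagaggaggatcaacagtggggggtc
In the Prdx1 and Sod1 stretches the capitals are the motif of the opposite strand, 133 to 125 and 56 to 48 bases before the start. At Prdx1 they overlap an AP-1 site, searched as TGACTCA on both strands and held by 5.2% of all windows, and a second such site lies 237 to 231 bases before the start in lower case. At Nfe2l2 the motif reads on the gene's own strand, 240 to 232 bases before the start. A match describes letters only, and binding was not measured.

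Each library held between 20549572 and 26076261 expected counts, and values below are counts-per-million (CPM), scaled by each library's total of gene counts. Replicates differed by more than counting noise, with a chi-square per degree of freedom of 42.2 for MON and 24.6 for NEU, and the biological coefficient of variation was 46.2% and 14.7%. The labelled types were not fully matched by markers. By the test given in the next paragraph, 20.8% of all genes tested were higher in MON and 21.8% in NEU. All 14 nonclassical monocyte markers were higher in MON, and their summed CPM was 10762 to 10994 in MON against 790 to 793 in NEU. Of 15 mature neutrophil markers, 14 were higher in NEU (summed CPM 347 to 372 in MON and 8054 to 8249 in NEU). Ly6g, Il1f9, Stfa2l1 and Camp were at 0 in MON, so they passed the filter on low counts through NEU alone. Of 10 classical monocyte markers, 5 were higher in MON and 4 in NEU. All 14 NK cell markers were higher in MON (3169 to 3230 against 46.4 to 47.6) and all 10 B cell markers in NEU (2648 to 2746 against 328 to 419). Of the other lists, T cell markers were higher in NEU for 7 of 10 and in MON for 1, platelet markers in NEU for 7 of 10, and eosinophil and basophil markers in MON for 6 of 8 tested. Erythroid markers, which matter here because red cells are rich in catalase, Prdx2 and Gpx1, summed to 6513 to 6878 in MON and 8312 to 8885 in NEU, with 2 of 10 tested higher in MON and 4 in NEU. Xist, which silences an X chromosome in female cells, had 0 counts in both MON libraries and 235 and 237 CPM in NEU, although Y-linked Ddx3y was present in all 4 libraries. The Xist counts in NEU do not match mice that were all male. The animals may thus differ between the types, and such a difference cannot be told apart from cell type. Abundant genes of these lists were Apoe and Spn (nonclassical monocyte), Ccr2 (classical monocyte), Csf3r and S100a9 (neutrophil), Gzma and Ncr1 (NK cell), Ms4a1 (B cell), Cd28 and Tcf7 (T cell), Itga2b and Ppbp (platelet), Ccr3 and Ms4a2 (eosinophil and basophil), and Hba-a2 and Hbb-bs (erythroid). With either NEU library left out, 3 platelet markers were called higher in NEU and at most 1 erythroid marker in MON, and without neutrophil replicate 2 the classical monocyte markers higher in MON were 3. The part of these other cells in the values below was not tested, and in bulk RNA fewer cells of a type and less RNA per cell cannot be told apart.

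Of the 10 genes, 7 were higher in monocytes (Prdx1, Gpx1, Sod1, Sod2, Nfe2l2, Cat and Prdx5), 2 were higher in neutrophils (Txnip and Txn1), and Gpx4 was not called. Called means an adjusted p under 0.05 in edgeR's quasi-likelihood test with Benjamini-Hochberg adjustment over all genes, which called 42.6% of the 14309 genes tested, 20.8% higher in monocytes and 21.8% higher in neutrophils. Among the 8470 genes with at least 10 CPM in 2 libraries, a level that all 10 genes pass, 61.2% were called, 30.9% higher in monocytes and 30.3% higher in neutrophils. The median log2 fold change, monocyte over neutrophil, was 0.62 over the 10 genes and -0.06 over all genes tested. The CPM of the groups did not overlap for any of the 10 genes, as for 75.1% of all genes tested. The uncertainty of read assignment was small, with a posterior SD of at most 0.87 reads for any of them.

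**Figure D1:**
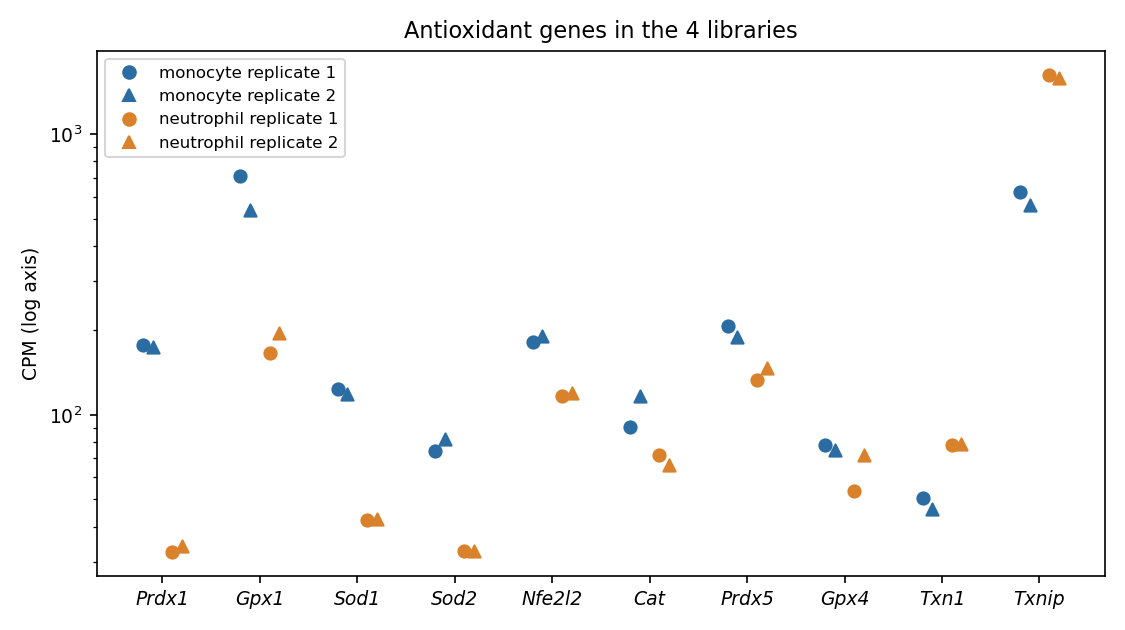
CPM of the 10 antioxidant genes on a log axis, with a point for each of the 2 monocyte (blue) and 2 neutrophil (orange) libraries and no mean or error bar. The monocyte points lie above the neutrophil points for Prdx1, Gpx1, Sod1, Sod2, Nfe2l2, Cat, Prdx5 and Gpx4 and below them for Txn1 and Txnip, and the Gpx4 points lie closest together, at 75 CPM in the lower monocyte library and 72.1 CPM in the higher neutrophil library.

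Superoxide is handled by SOD1, the copper-zinc enzyme of the cytosol, and SOD2, the manganese enzyme of mitochondria, and both transcripts were higher in monocytes. Sod1 (chr16:90220754-90226329) was at 124 and 119 CPM in the MON libraries and at 42.1 and 42.7 CPM in the NEU libraries. The 2 libraries of each type lay close together, and the monocytes were 2.86-fold higher (log2 fold change 1.51 ± 0.10, SE, adjusted p = 0.000221, edgeR). Sod2 (chr17:13006846-13040063) was at 74.5 and 81.7 CPM in MON and at 32.8 and 32.7 CPM in NEU, a 2.38-fold difference (log2 fold change 1.25 ± 0.12, adjusted p = 0.000754, edgeR). Per length of transcript, Sod1 stood 12.9 and 11 times above Sod2 in MON and 9.75 and 9.82 times above it in NEU. The copper chaperone of SOD1, Ccs, was low in both types, at 6.70 ± 0.723 CPM (SD, n = 2) in MON and 2.82 ± 0.0692 CPM in NEU, and was called higher in monocytes (log2 fold change 1.24 ± 0.38, adjusted p = 0.0448, edgeR). That call was lost when either NEU library was left out (adjusted p = 0.275 and 0.25). The extracellular enzyme Sod3 had no counts in any library.

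Hydrogen peroxide can be split without a reductant by catalase, the enzyme of peroxisomes. Cat (chr2:103453849-103485160) was at 90.8 and 117 CPM in MON and at 71.7 and 66.0 CPM in NEU. The replicates of this gene lay further apart than those of the dismutases, with an SD of 17.7% of the mean in MON, and the difference was 1.51-fold (log2 fold change 0.59 ± 0.15, adjusted p = 0.024, edgeR). Without neutrophil replicate 2 the call was lost (log2 fold change 0.52, adjusted p = 0.0927). Over the 4 fits that each leave out a library, the log2 fold change lay between 0.38 and 0.75. Red cells carry much catalase, and the erythroid markers named above summed higher in NEU, the type with less Cat.

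GPX1 and GPX4 are selenium enzymes that spend glutathione. Gpx1, the common cytosolic form (chr9:108338903-108340343), was at 713 and 538 CPM in MON and at 166 and 195 CPM in NEU. It was 3.46-fold higher in monocytes (log2 fold change 1.79 ± 0.16, adjusted p = 0.000682, edgeR), although its monocyte libraries differed by an SD of 19.8% of their mean. Gpx4, which removes lipid peroxides from membranes and protects cells from ferroptosis (chr10:80047166-80056439), was at 78.2 and 75 CPM in MON and at 53.5 and 72.1 CPM in NEU. The higher NEU library nearly reached the MON libraries, and the difference did not pass the test (log2 fold change 0.28 ± 0.17, adjusted p = 0.225, edgeR). The ratio of Gpx1 to Gpx4 per length was 7.29 and 6.26 in MON and 3.13 and 2.61 in NEU, and did not overlap. Of the other 6 glutathione peroxidases only Gpx8, a form of the endoplasmic reticulum, could be tested. It had 49 and 124 counts in MON and 0 in NEU, so it passed the filter through the MON libraries alone. With a floor of 3 counts for the pair of NEU libraries it was at least 47.1-fold higher in monocytes. Gpx7 went the other way, with 0 counts in MON and 7 and 6 in NEU, and was not tested.

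Most peroxiredoxins reduce peroxide with a cysteine that thioredoxin then resets. Prdx1, the abundant cytosolic form (chr4:116685544-116700822), was at 178 and 175 CPM in MON and at 32.5 and 34.1 CPM in NEU. With a 5.29-fold difference it was the gene of the 10 that differed most (log2 fold change 2.40 ± 0.09, adjusted p = 4.95e-05, edgeR), and the log2 fold change lay between 2.35 and 2.42 over the 4 fits that each leave out a library. Prdx5, found in mitochondria, peroxisomes and cytosol (chr19:6906697-6910106), was at 208 and 189 CPM in MON and at 133 and 147 CPM in NEU. This was a 1.42-fold difference (log2 fold change 0.50 ± 0.10, adjusted p = 0.0111, edgeR), and the call was lost without neutrophil replicate 1 (0.41, adjusted p = 0.101). The balance of the pair differed between the types: per length, Prdx5 stood 2.84 and 1.90 times above Prdx1 in MON and 12.1 and 12.8 times above it in NEU. As a baseline, edgeR's test called 20.8% of the 14309 genes toward monocytes and 21.8% toward neutrophils. Of the 7 genes of peroxiredoxins and sulfiredoxin, Prdx4 was not called (log2 fold change 0.42 ± 0.48). The other 6 were higher in monocytes, and none was higher in neutrophils. Those that are not among the 10 genes were Srxn1, which repairs overoxidised peroxiredoxins (1.90 ± 0.28, adjusted p = 0.00373), Prdx2 (1.59 ± 0.15, adjusted p = 0.000819), Prdx3 (1.01 ± 0.20, adjusted p = 0.0123) and Prdx6 (0.87 ± 0.13, adjusted p = 0.00457), all in edgeR's test. Prdx3 lost its call without neutrophil replicate 1 (adjusted p = 0.0775).

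The thioredoxin pair went the other way. Txn1, the cytosolic thioredoxin that feeds electrons to the peroxiredoxins (chr4:57943373-57956411), was at 50.6 and 46.2 CPM in MON and at 78.2 and 78.6 CPM in NEU. It was 1.62-fold higher in neutrophils (log2 fold change -0.70 ± 0.11, adjusted p = 0.00473, edgeR). Its inhibitor Txnip (chr3:96557957-96561883) was at 624 and 559 CPM in MON and at 1632 and 1591 CPM in NEU, the highest values of any of the 10 genes. It was 2.73-fold higher in neutrophils (log2 fold change -1.45 ± 0.08, adjusted p = 0.000163, edgeR). Since Txnip differed more than Txn1, the ratio of inhibitor to thioredoxin per length was 4.50 and 4.76 in MON and 8.46 and 8.23 in NEU. Of the 10 thioredoxin system genes, 4 were higher in monocytes, 2 in neutrophils (Txn1 and Txnip themselves) and 4 were not called. The shares over all genes tested were 20.8% higher in monocytes and 21.8% higher in neutrophils. Txnrd1, the cytosolic thioredoxin reductase, was higher in monocytes (88.0 and 86.5 CPM against 39.6 and 37.8, log2 fold change 1.17 ± 0.10, adjusted p = 0.00065, edgeR), as was the thioredoxin-like Txnl1 (1.32 ± 0.12, adjusted p = 0.000735). The mitochondrial Txn2 and Txnrd2 were not called (log2 fold changes 0.39 ± 0.24 and 0.15 ± 0.45).

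Txnip is an alpha-arrestin, and the family and the MondoA-type factors that switch Txnip on were listed together. Of these 8 genes, Txnip itself included, neutrophils had the higher level of 4 and monocytes of 1, and 3 were not called (median log2 fold change -0.35). Among all genes tested the shares were 21.8% and 20.8%, and the median was -0.06. Arrdc4, the closest relative, was at 15.7 and 13.7 CPM in MON and at 61.3 and 61.4 CPM in NEU (log2 fold change -2.06 ± 0.14, adjusted p = 0.000256, edgeR). Mlxip, which encodes MondoA, the glucose-sensing factor, was also higher in neutrophils (50.1 ± 2.41 and 111 ± 2.03 CPM, SD, n = 2, log2 fold change -1.15 ± 0.10, adjusted p = 0.000621). Arrdc3 differed less (-0.40 ± 0.09, adjusted p = 0.0161) and lost its call without neutrophil replicate 1 (adjusted p = 0.12). Mlxipl, which encodes ChREBP, had 22 and 47 counts in MON and 0 in NEU, so it passed the filter through MON alone. It was at least 18.8-fold higher in monocytes, and this call was lost when either NEU library was left out. Their partner Mlx was not called (log2 fold change 0.21 ± 0.15), although with the effective length as an offset it was called higher in monocytes (0.91, adjusted p = 0.0233).

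**Figure D2:**
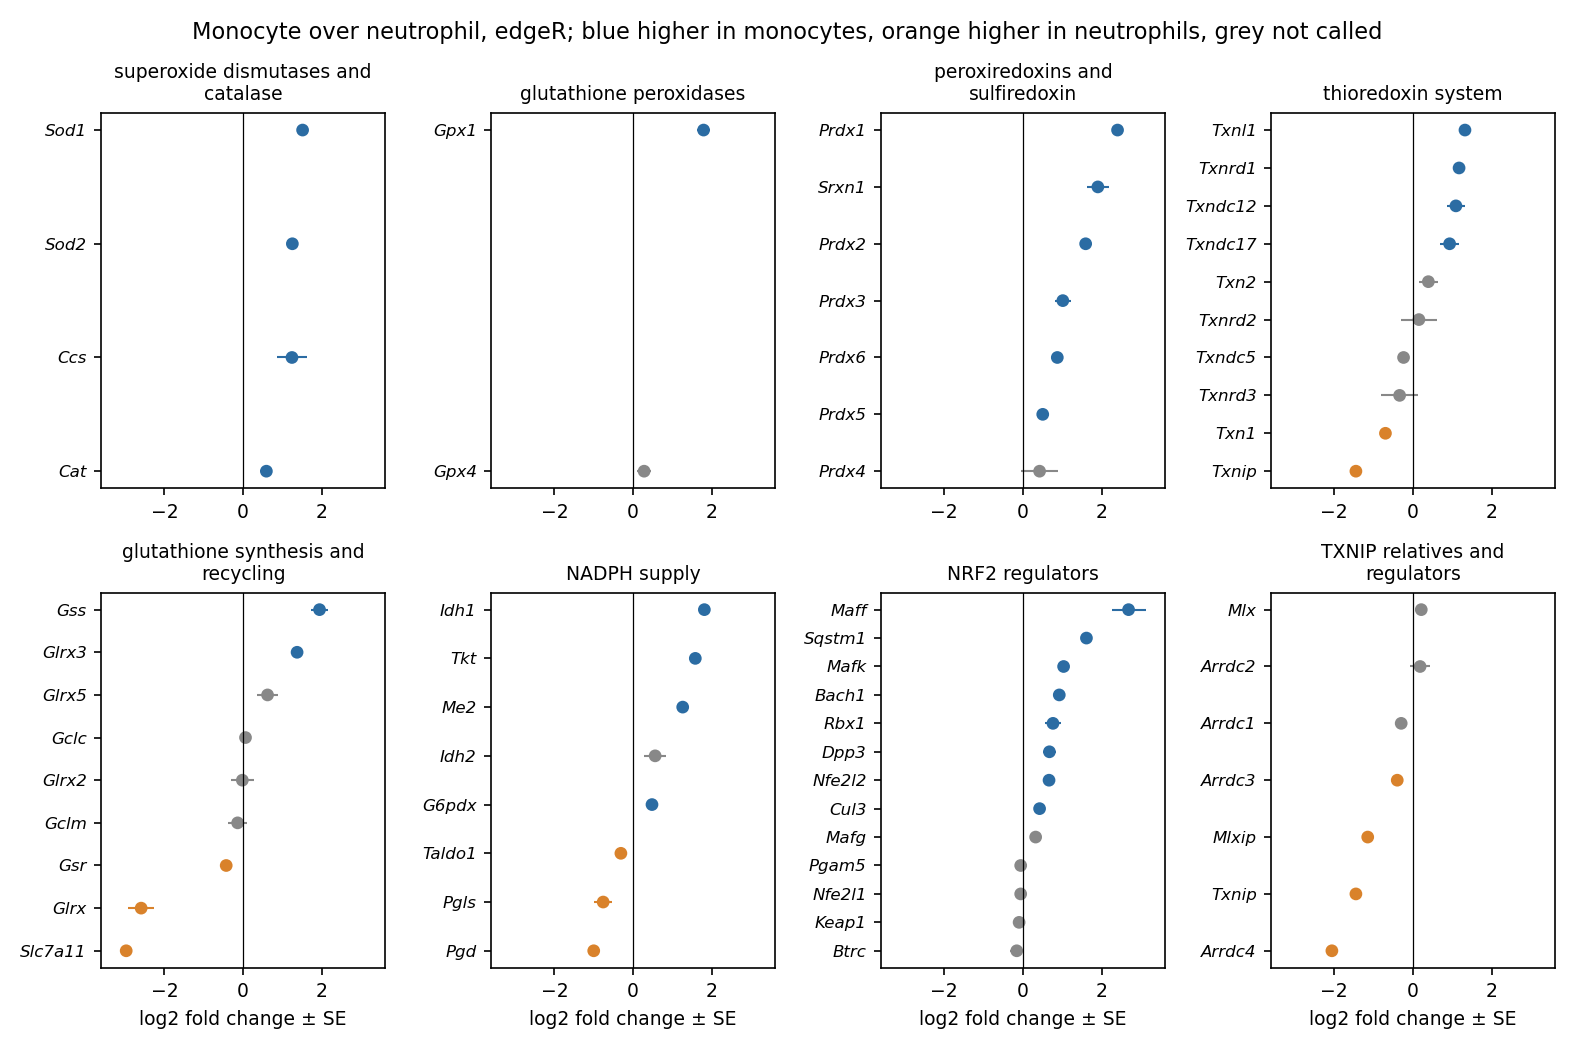
Log2 fold change, monocyte over neutrophil, with its standard error for the tested genes of 8 lists, in blue where higher in monocytes, orange where higher in neutrophils and grey where not called. Genes with 0 counts in a group (Gpx8 and Mlxipl) are left out since their fold is only a bound. The called dismutases, catalase and peroxiredoxins lie to the right of 0, whereas Txn1, Txnip, Arrdc3, Arrdc4 and Mlxip lie to the left.

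Nfe2l2 (chr2:75675513-75704641), which encodes NRF2, was at 182 and 191 CPM in MON and at 117 and 119.6 CPM in NEU. Over the whole gene the monocytes were 1.58-fold higher (log2 fold change 0.66 ± 0.09, adjusted p = 0.00239, edgeR). The gene has a coding transcript of 2475 bases and a processed, noncoding transcript of 1447 bases in the annotation. The length that the tables give for a gene is weighted by the abundance of its transcripts, and for Nfe2l2 it was 1921 and 1860 bases in MON and 2335 and 2323 bases in NEU. These lengths put the coding transcript at 46.1% and 40.2% of Nfe2l2 molecules in MON and at 86.4% and 85.2% in NEU. Per length, the coding transcript was at 47.9 and 45.3 CPM per kilobase in MON and at 46.4 and 47.1 in NEU (means 46.6 ± 1.88 and 46.7 ± 0.470, SD, n = 2), and the groups overlapped. The processed transcript was at 56.1 and 67.5 in MON and at 7.30 and 8.17 in NEU, a 7.99-fold difference of means. The difference in the whole gene therefore lay in the processed transcript. The second exon of that transcript (chr2:75691052-75692372, 1321 bases) lies within the first intron of the coding transcript, so its reads cannot be told apart from reads of unspliced Nfe2l2 RNA. The split was computed after the data were seen and carries no test, because the tables hold no counts per transcript.

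**Figure D3:**
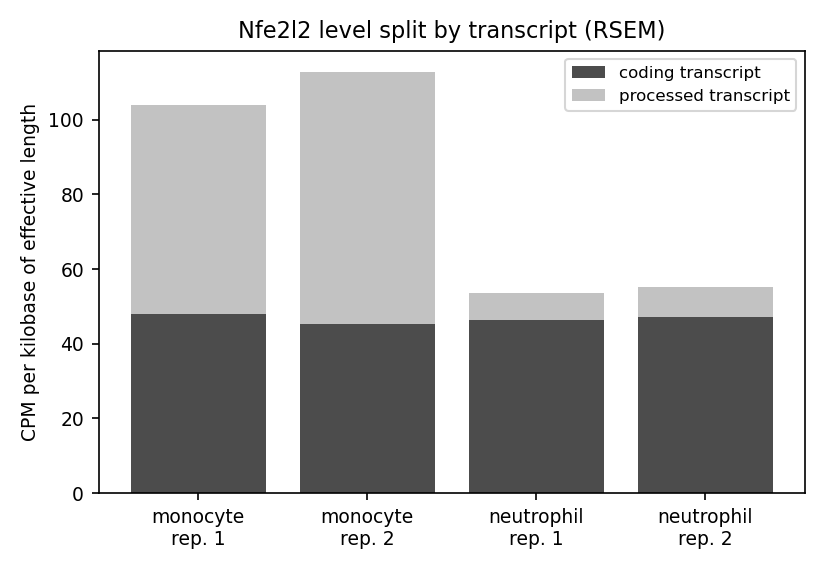
Nfe2l2 level in CPM per kilobase in each of the 4 libraries, as bars from 0 split into the coding transcript (dark) and the processed transcript (light) as computed from the RSEM gene length. The dark parts lie between 45.3 and 47.9 in all 4 libraries, and the light parts reach 56.1 and 67.5 in monocytes against 7.30 and 8.17 in neutrophils.

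NRF2 acts through partners and is held by a degradation complex, and these genes were listed as its regulators. Of the 13 genes of this list, Nfe2l2 included, 8 were higher in monocytes, beside 20.8% of all genes tested. None was higher in neutrophils, beside 21.8% of all genes tested, and 5 were not called. Without neutrophil replicate 2 the 8 fell to 5, with Cul3, Rbx1 and Dpp3 lost (adjusted p = 0.179, 0.0541 and 0.197). Maff, a small MAF partner of NRF2, was at 9.32 ± 2.44 CPM in MON and 1.45 ± 0.287 CPM in NEU (SD, n = 2, log2 fold change 2.68 ± 0.43, adjusted p = 0.00509, edgeR). Sqstm1, whose product p62 takes KEAP1 away from NRF2, was at 355 and 446 CPM in MON and at 128 and 135 CPM in NEU (1.61 ± 0.13, adjusted p = 0.00048). Bach1, a repressor at the same DNA motif, was higher in monocytes too (0.92 ± 0.10, adjusted p = 0.00145), and Keap1, the inhibitor, was at 30.1 and 30.6 CPM in MON and at 29.2 and 36.0 CPM in NEU and was not called (-0.10 ± 0.16, adjusted p = 0.649). Bach1 and Keap1 were named after their values were seen. For genes at large the calls split about evenly, 20.8% toward monocytes and 21.8% toward neutrophils, with a median log2 fold change of -0.06. The NRF2 target genes did not share a direction either, so an even split alone does not set them apart. Of 19 NRF2 target genes tested, 7 were higher in monocytes, 7 in neutrophils and 5 in neither, and the median log2 fold change was 0.06. Without neutrophil replicate 1 the count higher in monocytes fell to 4, with Hmox1, Nqo1 and G6pdx lost (adjusted p = 0.151, 0.346 and 0.151), and the count higher in neutrophils was 6. Prdx1 and Srxn1 were among the former, and Slc7a11 (-2.97 ± 0.15, adjusted p = 9.58e-05) and Osgin1 (-1.77 ± 0.28, adjusted p = 0.00493) among the latter.

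Glutathione and NADPH are the reductants behind these enzymes. Beside the counts of both lists stand the shares over all genes tested, 20.8% higher in monocytes and 21.8% in neutrophils. Of 9 genes of glutathione synthesis and recycling, 2 were higher in monocytes, 3 in neutrophils and 4 were not called. Gss, glutathione synthetase, was higher in monocytes (log2 fold change 1.94 ± 0.21, adjusted p = 0.00125, edgeR), as was the glutaredoxin Glrx3 (1.37 ± 0.15, adjusted p = 0.0012). The cystine importer Slc7a11 went the other way, at 13 and 16.1 CPM in MON and 114 CPM in both NEU libraries. The glutaredoxin Glrx was also higher in neutrophils (-2.59 ± 0.33, adjusted p = 0.00239), and so was Gsr, glutathione reductase (-0.43 ± 0.07, adjusted p = 0.00617). Of 8 tested genes of NADPH supply, 4 were higher in monocytes, 3 in neutrophils and 1 was not called. Among them Idh1 (1.81 ± 0.13, adjusted p = 0.000304) and Tkt (1.58 ± 0.11, adjusted p = 0.000306) were higher in monocytes and Pgd, an NADPH-making enzyme of the pentose phosphate pathway, in neutrophils (-1.0 ± 0.09, adjusted p = 0.000757). Pgls, of the same pathway, was also called higher in neutrophils (-0.76 ± 0.23, adjusted p = 0.0439). When either NEU library was left out, only Pgd of the 3 was still called, with Pgls (adjusted p = 0.0899 and 0.24) and Taldo1 (0.0715 and 0.194) lost, and G6pdx, 1 of the 4 higher in monocytes, was lost too (0.151 and 0.0523).

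Gpx1 and Gpx4 contain selenocysteine, and the genes that insert it were also listed. The test called 42.6% of all genes tested, 20.8% higher in monocytes and 21.8% in neutrophils, and a gene not called may still differ. Of 7 genes of selenoprotein synthesis, 2 were called, both higher in monocytes (Trnau1ap, 0.87 ± 0.24, adjusted p = 0.0323, and Sephs1, 0.70 ± 0.16, adjusted p = 0.0202), and both calls were lost when either NEU library was left out (adjusted p = 0.102 to 0.224). Of 13 tested other selenoproteins and methionine sulfoxide reductases, 7 were higher in monocytes and 3 in neutrophils, with Selenof (1.80 ± 0.09, adjusted p = 8.96e-05) and Selenos (1.60 ± 0.19, adjusted p = 0.00174) on the one side and Selenon (-1.08 ± 0.17, adjusted p = 0.00508) and Msrb1 (-1.07 ± 0.10, adjusted p = 0.000876) on the other. Of 12 tested glutathione transferases, 4 were higher in monocytes, led by Gstm1 (3.12 ± 0.26, adjusted p = 0.000554) and Gstm4 (2.73 ± 0.54, adjusted p = 0.0109), and 1 in neutrophils. Gstm4 lost its call without neutrophil replicate 1 (adjusted p = 0.0701). The gene higher in neutrophils, Gsta4, had 0 counts in MON and 23 and 27 in NEU, and its call was lost when either NEU library was left out (adjusted p = 0.297 and 0.363), whereas 2 and 4 transferases were called higher in neutrophils without monocyte replicates 1 and 2. Over all 12 of these lists and outside the 10 genes, monocytes had the higher level of 39 and neutrophils of 15 out of 90 tested genes, so that 60.0% were called, beside 42.6% of all genes tested and 61.2% of those at 10 CPM or more in 2 libraries. Their median log2 fold change was 0.42. Among the 39 were Gpx8 and Mlxipl, at 0 in NEU, and among the 15 was Gsta4, at 0 in MON. Each passed the filter through the other group alone. Without neutrophil replicate 1 these counts were 26 and 10 and without neutrophil replicate 2 they were 26 and 12, while over all genes 12.9% and 11.8%, and 13.4% and 12.4%, were then called in each direction. Without monocyte replicate 1 they were 39 and 17 (25.9% and 30.4% over all genes), and without monocyte replicate 2 they were 43 and 20 (26.3% and 30.8%).

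Per length of transcript the order of the genes differed between the cell types. The level used is the expected count per kilobase of effective length scaled to the library's gene counts, or CPM per kilobase. In monocytes Gpx1 led at 870.4 and 739, or 36.4% of the summed level of the 10 genes. Prdx5 followed at 412 and 342. Next came Sod1 (263 and 246) and Txnip (260.2 and 247), which overlapped, then Prdx1, Gpx4 and Nfe2l2 in that order. Txn1 (57.8 and 51.9) and Cat (37.3 and 59.8) overlapped each other, and Sod2 was last at 20.4 and 22.3. In neutrophils Txnip led at 747 and 725, or 43.7% of the summed level. Gpx1 (268 and 295) and Prdx5 (264 and 285) came next and overlapped, as did Gpx4 (85.7 and 113) and Txn1 (88.3 and 88.1). Sod1 lay just under Txn1 at 87.4 and 87.7, within the range of Gpx4, followed by Nfe2l2, Cat, Prdx1 at 21.8 and 22.3, and Sod2 at 8.97 and 8.92. Prdx1 thus stood in the middle of the order in monocytes and next to last in neutrophils, whereas Sod2 was last in both.

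**Figure D4:**
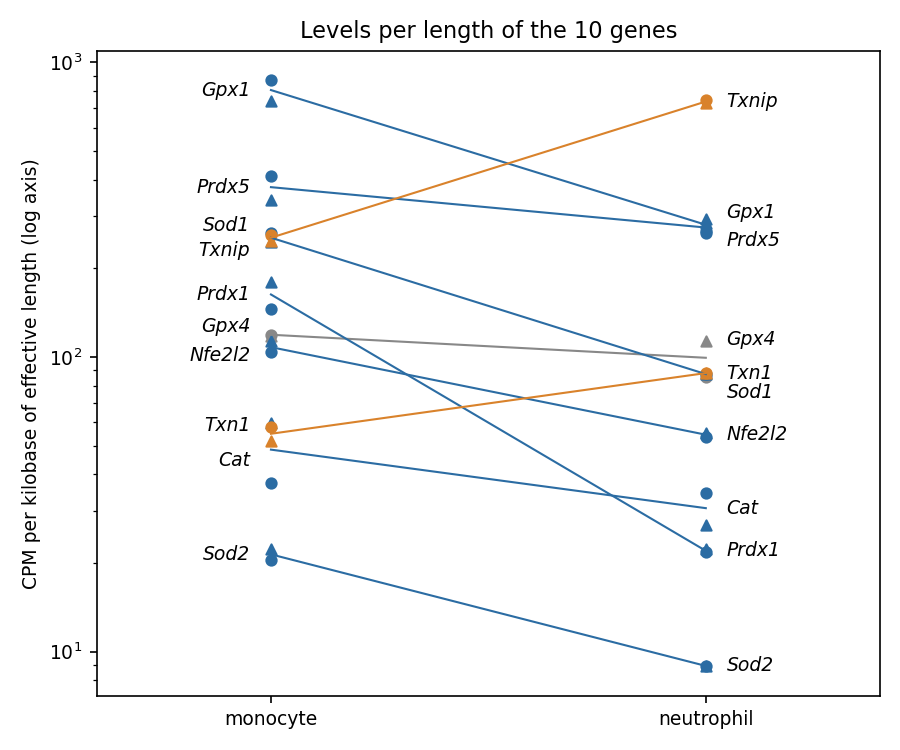
Level of each gene in CPM per kilobase on a log axis, with a point for each library (circle replicate 1, triangle replicate 2) and a line between the group means, in blue for genes called higher in monocytes, orange for those called higher in neutrophils and grey for Gpx4. The Txnip line rises from 254 to 736 and the Prdx1 line falls from 163 to 22.0, crossing several others.

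The weighted gene length varied among libraries for 7 of the 10 genes and did not overlap between the groups for 6 of them, against 42.7% of the 8827 tested genes whose length varied. It was longer in MON for Gpx1 (995 and 890 bases against 786 and 818), Gpx4, Prdx5 and Txnip (2572 and 2422 against 2351 and 2352), and longer in NEU for Prdx1 (1402 and 1133 against 1659 and 1690) and Nfe2l2. Cat overlapped (2613 and 2114 against 2245 and 2613), and Sod1, Sod2 and Txn1 have 1 transcript each in the tables. With the length of each library as an offset, the log2 fold change of Prdx1 was 2.88, that of Gpx1 1.51 and that of Nfe2l2 0.99, all still called, and Cat was no longer called (0.66, adjusted p = 0.101). Sod1, Prdx5 and Txnip overlap genes on the opposite strand (Scaf4, Trmt112 and the antisense gene Gm15441, the last with 56 to 125 counts in a library), and whether the counting used strand was not stated in the labels or methods.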

How the data were processed

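Total RNA was depleted of rRNA and made into random-hexamer libraries without molecular identifiers. The authors aligned reads to mm10 with STAR and quantified genes with RSEM, and the study names GENCODE M4 as its annotation. For strand use in the counting, a setting was not given in the sources used here. The deposited tables hold, for each gene, expected counts, posterior mean counts with their standard deviation, TPM (scaled by the authors to the same sum in every library) and weighted and effective lengths. Of 69690 entries, 43346 with a gene identifier were used. Spike-in controls and entries with numeric identifiers held at most 0.000594% of counts and stayed out. Names and coordinates come from GENCODE M21 (mm10), which matched 42462 identifiers (98.0%).

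Expected counts were rounded, filtered with filterByExpr, scaled by TMM and tested with edgeR 4.0.16 (quasi-likelihood F test, R 4.3.3), monocyte over neutrophil, with Benjamini-Hochberg adjustment over 14309 genes. Fold changes have a standard error taken from the F value. Groups came from the labels. The fit was also tested on simulated data. Alternatives were the DESeq2 1.42.0 test, DESeq2 size factors or upper-quartile scaling in edgeR, no scaling beyond library size, dropping the filter or raising it to 10 CPM in 2 libraries, limma 3.58.1 on log2(TPM + 1) and log2(TPM + 0.1) for genes at a TPM of at least 1 in 2 libraries, effective lengths as an offset, removal of mitochondrially encoded genes or of the 10 most abundant genes, posterior mean counts, a test for changes beyond 2-fold and removal of each library. With 0 counts in a group, the fold is a bound against 3 counts over the group. Such a gene passed the filter only through the other group.

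The genes and lists were chosen with earlier results of these data known. The naming rule took all 10 genes and, from each list and direction, up to 2 called genes with the largest change at 5 CPM or more in each library of the group with more, and allowed all where 5 or fewer were called. From each marker list it took the 2 most abundant genes, of which some are not reported here. Prdx2, Prdx3, Prdx6, Bach1, Keap1, list members given as not called or at 0, genes named as losing a call, and Xist and Ddx3y were chosen after their values were seen. With 2 libraries a group, precision rests on the pooled spread.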

Additional observations from a re-analysis of the deposited data

Results flagged for a closer look

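Some counts lay outside the genes tested. Entries with a numeric identifier, which name no mouse gene, held 70 and 8 counts in monocyte replicates 1 and 2, and 37 and 46 counts in neutrophil replicates 1 and 2. Spike-in controls held 85 counts in monocyte replicate 1 and 16 in monocyte replicate 2. All these are above the 3 counts that a count of 0 allows, and none entered library sizes or tests.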

How the results depend on the processing

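Over 17 alternative settings, the direction of all 10 genes held in all 170 refits, and 158 of these kept the side of the threshold. The other 12 were calls lost. Against a 2-fold change, 3 of the 10 genes (Prdx1, Gpx1 and Sod1) were called higher in monocytes and 1 (Txnip) in neutrophils, with Sod2, Nfe2l2, Prdx5, Cat and Txn1 lost, and of the other antioxidant genes 18 and 5 were called, while over all 14309 genes 934 (6.53%) and 1055 (7.37%) were. Prdx5 also lost its call in limma on log2(TPM + 1) and log2(TPM + 0.1) (0.47 and 0.48, adjusted p = 0.0936 and 0.093) and without neutrophil replicate 1. Cat lost its call in limma (0.59 and 0.65, adjusted p = 0.102 and 0.11), with the effective length offset and without neutrophil replicate 2. Adjusted p over all settings ran from 0.000173 to 1.0 for Prdx5 and from 0.000153 to 1.0 for Cat. In limma the other antioxidant genes called higher in neutrophils were 8 with a pseudocount of 1 and 7 with 0.1, against 15 in edgeR. Limma tested 9277 genes, of which 19.4% and 18.2% were called higher in neutrophils, against 21.8% of 14309 in edgeR. The causes were not tested. Leaving out each library in turn gave log2 fold changes of 1.47 to 1.52 for Sod1, 1.16 to 1.30 for Sod2 and 1.56 to 1.96 for Gpx1. They were 0.06 to 0.50 for Gpx4, 0.60 to 0.68 for Nfe2l2, -0.78 to -0.65 for Txn1 and -1.54 to -1.39 for Txnip. For the coding transcript of Nfe2l2 alone, a setting chosen after seeing the data, the log2 ratio was -0.0043. The shares of Gpx1 in monocytes (36.4%) and Txnip in neutrophils (43.7%) did not change with TPM or posterior mean counts. No paired analysis was possible because the labels give no replicate numbers that tie monocyte to neutrophil libraries. With 2 libraries a group, no exact permutation test can reach 0.05, and the monocyte pair was the more variable.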
